A study of Mus musculus with 12 samples.

Results

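Ucp3 and Ucp2 are neighbouring genes on mouse chromosome 7 that encode uncoupling proteins, carriers of the inner mitochondrial membrane. Their joint locus was taken as both gene bodies with 10 kb on each side, chromosome 7 from 100462991 to 100509629 (mm10), a stretch of 46639 bp. It held 9 regions called for acetylated histone H3 lysine 27 (H3K27ac), found at promoters and enhancers in use, out of 79289 regions in all hearts together. Each region was assigned to its nearest protein-coding gene body. By that rule 3 regions belonged to Ucp3, 2 to Ucp2 and 4 to C2cd3, the gene upstream of Ucp3. If only the pair of uncoupling genes is considered, 7 regions were nearest to Ucp3 and 2 to Ucp2.

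The series mapped H3K27ac by ChIP-seq in single whole hearts of newborn mice at postnatal day 0 (P0). The groups were wild type (WT, n = 3 hearts, numbered 1, 3 and 4) and edKO (n = 3 hearts, numbered 1, 3 and 6), which are RXRab-/- in cardiomyocytes only, that is, without the nuclear receptors of the genes Rxra and Rxrb. The other cells of an edKO heart keep both genes, and how the deletion was made, and whether WT hearts carry any allele of it, is not given in the sources used here. Each heart was fixed with DSG and formaldehyde, and counts as 1 biological replicate per the labels. Each heart has 1 list of called peaks, of 57976, 62882 and 66325 distinct regions in WT and 47971, 48274 and 67706 in edKO. The longest list is thus that of edKO 6. The labels give an average read number over samples and no depth per heart, so a stretch missing from a list was not called, which is not the same as unmarked.

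Uncoupling proteins belong to the SLC25 family of mitochondrial carriers. Ucp1, the founding member, lets protons return across the inner membrane in brown fat and so releases heat. Ucp3 is expressed in skeletal muscle, brown fat and heart, and its expression follows fatty acid supply, in part through PPAR receptors, which bind DNA as partners of RXR. Ucp2 is expressed in many tissues, including immune cells, and has been linked to limits on reactive oxygen species and to the export of metabolites from mitochondria.

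The genes lie head to tail on the plus strand. Ucp3 (gene ID 22229) spans 100472991 to 100486432, and Ucp2 (gene ID 22228) spans 100493337 to 100499629, with 6904 bp between them. C2cd3, a gene of centriole and cilium assembly, ends upstream at 100470159, also on the plus strand. The lncRNA gene Gm10603 runs on the minus strand from 100469380 to 100459418, inside the end of C2cd3. Dnajb13 follows downstream of Ucp2 on the minus strand. The gene table holds no exons, so a region can be placed in a gene body but not in an exon, intron or UTR.

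The promoters of the pair are shown because the hearts differ at one and not at the other. Both are RefSeq sequences (GRCm38.p6, identical in build to mm10) on the plus strand from 250 bp before to 50 bp after the RefSeq start site. That site is the gene start for Ucp3 (100472991) and lies at 100493358 for Ucp2, just inside its gene record, and all distances from the Ucp2 start are counted from it. Capitals mark AGGTCA, the half-site bound by RXR and its partner receptors, searched on both strands.
Ucp3, chr7:100472741-100473040: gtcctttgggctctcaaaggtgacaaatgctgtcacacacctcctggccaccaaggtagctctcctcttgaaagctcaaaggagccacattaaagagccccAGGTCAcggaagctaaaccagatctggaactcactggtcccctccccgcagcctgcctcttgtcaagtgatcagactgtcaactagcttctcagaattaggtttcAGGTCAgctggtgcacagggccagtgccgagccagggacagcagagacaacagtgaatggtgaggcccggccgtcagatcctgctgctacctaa
Ucp2, chr7:100493108-100493407: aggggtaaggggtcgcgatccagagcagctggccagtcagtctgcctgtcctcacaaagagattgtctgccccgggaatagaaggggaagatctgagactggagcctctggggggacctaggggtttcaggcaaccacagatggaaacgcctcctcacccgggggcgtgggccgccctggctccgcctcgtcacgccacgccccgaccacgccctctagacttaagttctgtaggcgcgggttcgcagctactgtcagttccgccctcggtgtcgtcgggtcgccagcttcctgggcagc

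The sequences differ in composition. The Ucp3 window has a GC content of 55.0% and 5 CpG dinucleotides, against 64.3% and 21 in the Ucp2 window, where the median over 17492 promoters is 56.3% and 13. AGGTCA occurs at -149 and at -44 from the start of Ucp3, on the plus strand, and nowhere in the Ucp2 window. At least 1 AGGTCA is found in 14.5% of all promoter windows, so its presence is common. An exact match to the half-site repeated in direct orientation with 1 base between (DR1) is in neither window and in 0.0515% of all. Repeats with any changed letter were not searched for, so an imperfect DR1 may be present. The E-box CAGCTG, at -40 in Ucp3, overlaps the second AGGTCA by 2 letters, and it also occurs at -225 in Ucp2 (15.1% of windows hold it). GGGCGG, the GC box, occurs in Ucp2 only, at -79 and at 11 on the minus strand (46.3% of windows). The matches are letters in a window and not measured binding sites.

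The promoter of Ucp3 was called in WT hearts alone, and the promoter of Ucp2 in every heart. The Ucp3 window was covered over 300 of its 300 bp in WT 1, WT 3 and WT 4, and over 0 bp in edKO 1, edKO 3 and edKO 6. Ucp2 had 300 bp covered in each of the 6 hearts. Across 17492 promoter windows, 19 (0.109%) were touched in all WT and no edKO hearts, and 1 of these (0.00572% of all), that of Ucp3, was covered in full in all 3 WT hearts. Windows touched in all 6 hearts made up 49.2%. The pair was chosen from this comparison of WT and edKO hearts, so these shares and all genotype differences at the locus are descriptions without a test. In whole hearts, fewer marked cells and less mark per cell cannot be told apart.

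**Figure D1:**
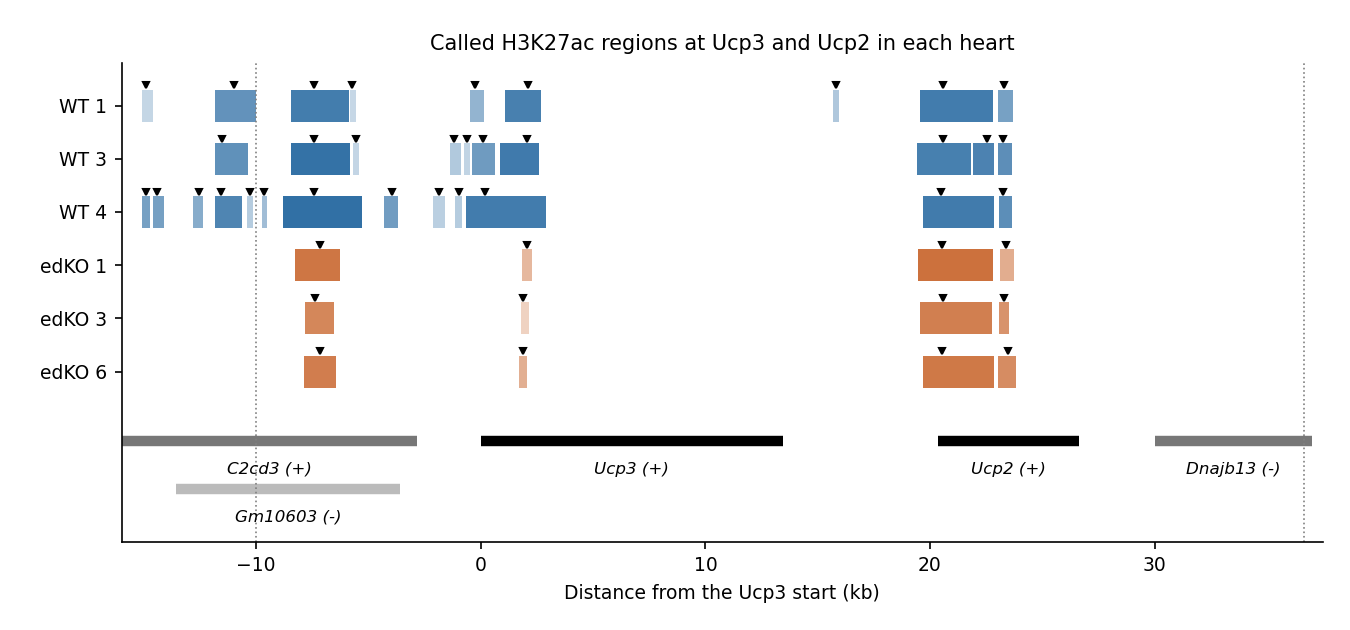
Called H3K27ac regions in each heart against the distance from the Ucp3 start in kb. Boxes are called regions, darker for a higher fold percentile within that list, triangles are their strongest summits, bars below are genes with their strand, and dotted lines bound the joint locus. The 3 edKO hearts have no box at the Ucp3 start, and all 6 hearts have boxes over the Ucp2 start and further inside Ucp2.

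Beyond the promoter, the mark at Ucp3 in WT hearts formed a stretch between -757 and 2881 bp from the gene start. In WT 1 it was called as 2 regions, from 100472496 to 100473115 and from 100474078 to 100475665. WT 3 had 3 regions there, from 100472234 to 100472497, 100472588 to 100473620 and 100473848 to 100475574. In WT 4 a single region ran without a break from 100472346 to 100475872. The WT hearts therefore differed in how the stretch was divided, while each covered both the promoter and a second site inside the gene.

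Each edKO heart had 1 small region at the inner site and none at the promoter. It lay from 100474834 to 100475270 in edKO 1, from 100474789 to 100475156 in edKO 3 and from 100474692 to 100475051 in edKO 6. Their summits were at 2062, 1893 and 1877 bp from the gene start. In WT 1 and WT 3 the strongest summit of the inner site was at 2089 and 2074 bp, and WT 4 had a summit at 2133 bp there, with its strongest at 166 bp. WT 4 had a further summit at 1794 bp, so the edKO summits lay within the span of the WT ones.

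Because the WT 4 region joins promoter and inner site, the merged region at the Ucp3 start (100472234 to 100475872) counts as called in all 6 hearts, as do 35.8% of all regions. Its called width was 2208, 3024 and 3527 bp across WT hearts and 437, 368 and 360 bp across edKO hearts. The genotypes did not overlap, and the mean width in edKO was 13.3% of that in WT (2920 ± 666 and 388 ± 42.3 bp, SD, n = 3 each). Among 28395 regions called in all 6 hearts, 5.99% had every edKO width below every WT width and 1.2% the reverse, and 2 had as low a ratio of mean widths as this region, which is 1 of them. Within its own list the region ranked by fold at percentile 81.8, 87.1 and 86.1 in WT 1, 3 and 4, and at 27.6, 5.27 and 35.3 in edKO 1, 3 and 6. A region called in pieces takes the rank of its highest piece, which in WT 1 and WT 3 was the inner site. Their pieces over the promoter ranked at 34.4 and 56.9. The edKO values are those of the inner site alone. The folds are the authors' own peak values, and each percentile describes 1 list. Every edKO percentile was below every WT percentile at 9.32% of regions called in all hearts, and above at 1.09%.

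**Figure D2:**
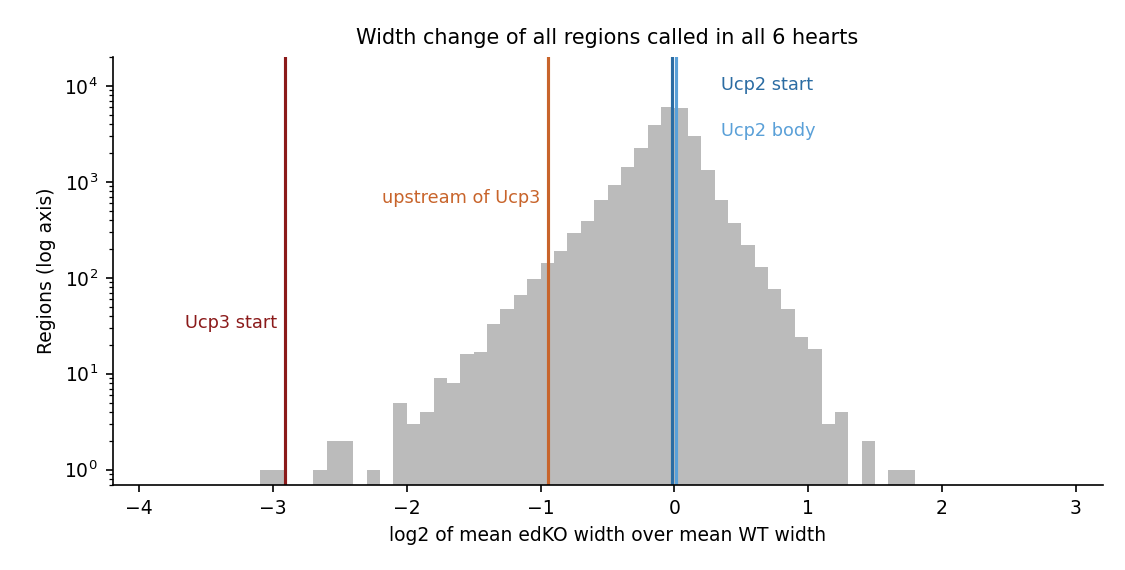
Number of regions (log axis) by the log2 of the mean edKO width over the mean WT width, for the 28395 regions called in all 6 hearts, with lines for the 4 at the locus. The Ucp3 start lies at the far left (13.3% of the WT width), the region upstream of Ucp3 in the left tail (52.1%), and both Ucp2 regions near 0.

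By fold, the strongest region on the Ucp3 side of the locus in each WT heart lay upstream of the gene. It was inside the end of C2cd3 and within the body of the antisense lncRNA gene Gm10603. The merged region runs from 100464186 to 100467683, and its near edge is 5307 bp from the Ucp3 body. Its called width was 2848, 2926 and 3498 bp across WT hearts and 2040, 1327 and 1461 bp across edKO hearts. Again every edKO value was below every WT value, with a mean of 1609 ± 379 bp in edKO against 3091 ± 355 bp in WT (SD, n = 3 each), or 52.1%. As low a ratio was found in 1.37% of regions called in all 6 hearts.

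The main summit of this upstream region was nearly fixed in WT hearts, at -7429, -7450 and -7448 bp from the Ucp3 start. In edKO hearts the strongest summit was at -7156, -7401 and -7148 bp. By fold it ranked at percentile 84.8, 94.8 and 96.6 of its list in WT and at 84.1, 70.1 and 77.9 in edKO, so edKO 1 was close to WT 1. Unlike the Ucp3 promoter, it was called in every heart and was among the higher-ranked regions of every list.

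The other regions on the Ucp3 side were small and called in WT hearts alone, none in all of them. WT 4 alone had regions at 100463249 to 100463474 (226 bp), at 100468660 to 100469301 (642 bp), which is near the start of Gm10603, and at 100470876 to 100471405 (530 bp). WT 3 and WT 4 shared a region before the promoter, at 100471637 to 100472156, with 488 and 331 bp. WT 1 alone had 296 bp between the genes, at 100488665 to 100488960. Counted as merged regions, 0 of the 9 were called in all WT and no edKO hearts, a pattern of 1.08% of all regions, and 0 had the reverse pattern (0.0719% of all). With WT 4 left out the count was 2, the promoter of Ucp3 and a piece of the upstream region, which are then regions of their own. With WT 1 left out it was 1, the region before the promoter.

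Just outside the 10 kb limit, a region inside C2cd3 (100461151 to 100462989) had 1839 bp in WT 1, 1462 bp in WT 3 and 1441 bp in WT 4, in 2 pieces, and 0 bp in each edKO heart. It ends 10001 bp before the Ucp3 body. Just inside the limit on that side lay the 226 bp region of WT 4. On the Ucp2 side the nearest region beyond the limit was that at the start of Coa4 (100536280 to 100537896), with 1473, 1561 and 1254 bp across WT hearts and 1617, 1252 and 1420 bp across edKO hearts.

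The regions of Ucp2 had closely similar widths in both genotypes. The region over its start (100492398 to 100495861) had 3271, 3363 and 3201 bp across WT hearts and 3336, 3223 and 3169 bp across edKO hearts, and the hearts overlapped. The mean was 3278 ± 81.2 bp in WT, against 3243 ± 85.2 bp in edKO (SD, n = 3 each), a ratio of 98.9%, where the median over regions called in all hearts was 97.6%. Its strongest summit lay downstream of the Ucp2 start in every heart, at 200, 194 and 145 bp in WT and at 157, 206 and 181 bp in edKO. The fold percentiles were 85.9, 82.5 and 86.6 in WT and 88.7, 76.9 and 82.1 in edKO.

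A second Ucp2 region lay further into the gene (100496014 to 100496811). It had 653, 624 and 565 bp across WT hearts and 605, 458 and 798 bp across edKO hearts, with both the lowest and the highest value in edKO. The fold percentiles were 52.1, 68.6 and 69.3 in WT and 36.7, 59.4 and 65.7 in edKO. Its strongest summit was between 2872 bp (WT 4) and 3085 bp (edKO 6) from the Ucp2 start. No region was called between the Ucp2 end and the end of the joint locus in any heart.

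**Figure D3:**
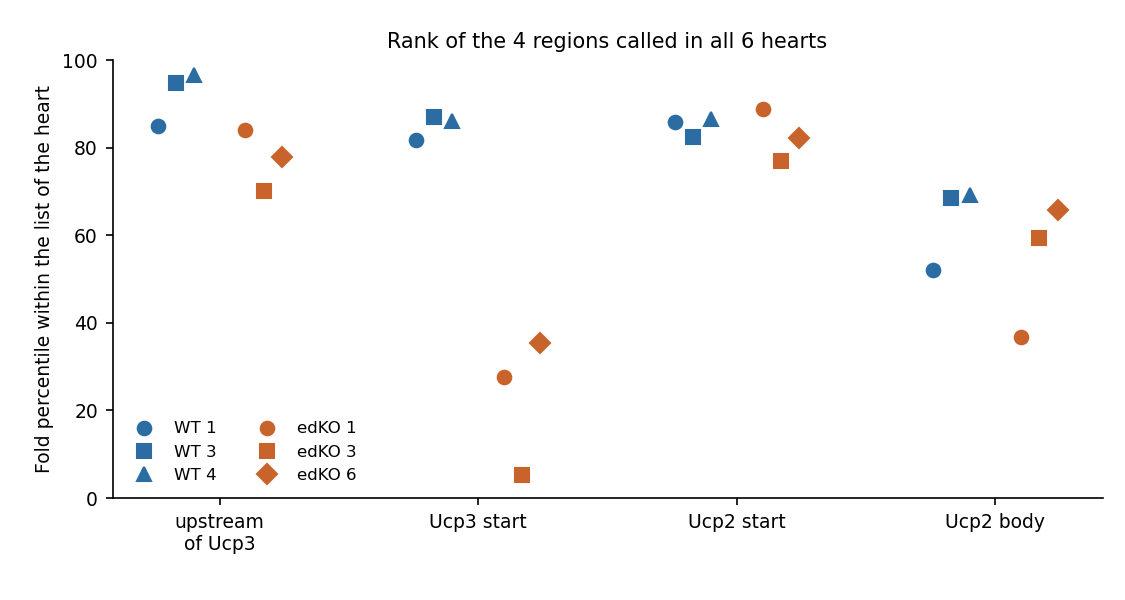
Fold percentile of each of the 4 regions called in all 6 hearts, within the list of its own heart (0 to 100, WT blue, edKO orange, 1 point a heart). At the Ucp3 start the WT points lie between 81.8 and 87.1 and the edKO points between 5.27 and 35.3, while at both Ucp2 regions the genotypes overlap.

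Summed along the locus, the difference between genotypes lay on the Ucp3 side. Inside C2cd3, within 10 kb of Ucp3, 2848, 2926 and 4366 bp were covered in WT and 2040, 1327 and 1461 bp in edKO. From the end of C2cd3 to the Ucp3 start it was 495, 1155 and 1506 bp in WT, against 0 bp in each edKO heart. The Ucp3 body had 1713, 2357 and 2882 bp across WT hearts and 437, 368 and 360 bp across edKO hearts. In all 3 stretches every WT heart was above every edKO heart.

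The stretch between the genes had 1104, 939 and 676 bp across WT hearts and 883, 798 and 657 bp across edKO hearts, which overlap. The Ucp2 body had 3116, 3048 and 3090 bp across WT hearts and 3058, 2883 and 3310 bp across edKO hearts, with means of 3085 ± 34.3 and 3084 ± 215 bp (SD, n = 3 each). Of the mean difference over the joint locus, -4880 bp, the Ucp3 body held 39.5%, the end of C2cd3 36.3%, the stretch from C2cd3 to Ucp3 21.6%, the stretch between the genes 2.60% and the Ucp2 body 0.0205%.

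Base by base, 2161 bp of the joint locus were covered in all WT and no edKO hearts, which is 15.9% of the bases covered in any heart, against 1.06% over the genome. No base of the locus had the opposite pattern, which made up 0.139% over the genome. Bases covered in all 6 hearts were 36.5% at the locus and 36.4% over the genome.

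**Figure D4:**
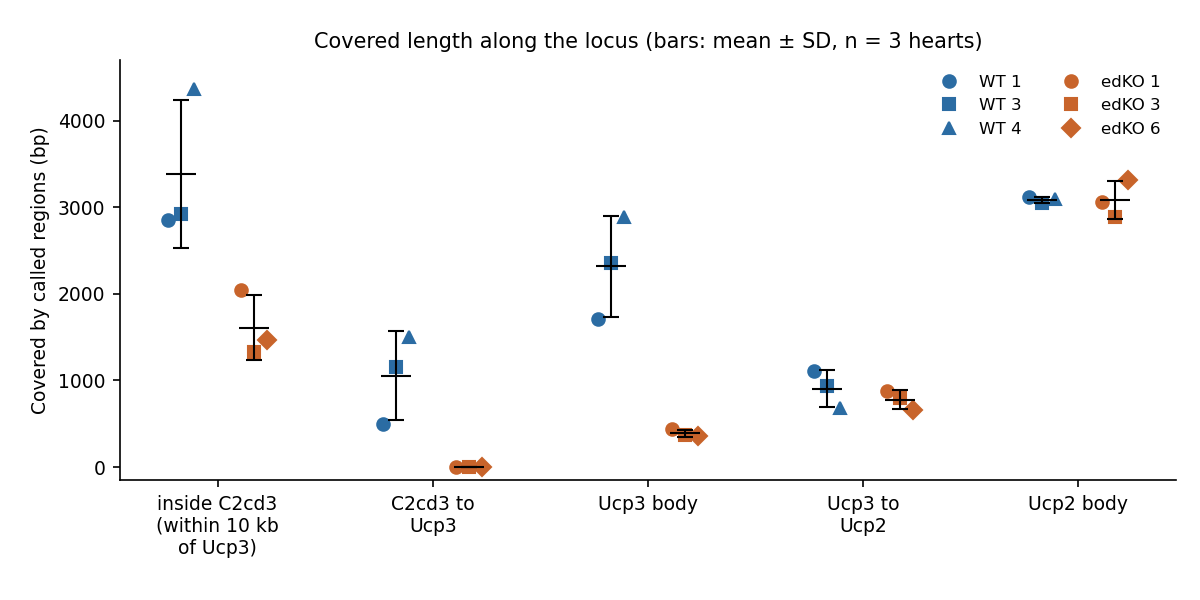
Base pairs covered by called regions in 5 consecutive stretches of the locus, 1 point a heart, with mean ± SD (n = 3 per genotype). The genotypes are separated in the 3 stretches up to the end of Ucp3 and overlap from there to the end of Ucp2.

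Measured as gene loci with 10 kb on each side, Ucp3 had 9029, 10220 and 12311 bp across WT hearts and 6121, 5279 and 5409 bp across edKO hearts. This window reaches into Ucp2, so most of the length left in edKO hearts belongs to the Ucp2 start region and the region inside C2cd3. With 5 kb on each side, a width chosen after seeing the data, the Ucp3 locus had 2504, 3512 and 5030 bp across WT hearts and 437, 368 and 360 bp across edKO hearts. The Ucp2 locus with 10 kb had 4220, 3987 and 3766 bp across WT hearts and 3941, 3681 and 3967 bp across edKO hearts.

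On the log2(covered bp + 200) scale, centred per heart, the difference edKO minus WT was -0.79 (SE 0.16) for Ucp3 and 0.04 (SE 0.11) for Ucp2. Ucp3 was the 284th lowest of 14317 loci. Fitted with limma over all loci, 15 (0.105%) were called lower in edKO at an adjusted p of 0.05 and 0 higher, with 663 lower and 284 higher at an unadjusted p under 0.05. Neither Ucp3 nor Ucp2 was among the 15. By centred lengths, every edKO heart was below every WT heart at 5.76% of loci, Ucp3 among them, and above at 7.11%. Separation in bp can differ from this, because the hearts differ in total covered length. Estimates were below 0 at 41.6% of loci. Ucp3 was called with the gene body alone (difference -2.0), with regions counted only for the closest gene (-2.46) and with 5 kb on each side (-2.59), so whether it was called depends on the window, and these calls too come from the comparison that chose the gene.

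Of 4 other protein-coding genes within 100 kb, C2cd3 alone had all edKO hearts below all WT hearts, and 0 were called. C2cd3 had 12691, 12610 and 14121 bp across WT hearts and 7844, 5403 and 5921 bp across edKO hearts (difference -0.95, SE 0.13). That window reaches past the Ucp3 start and so takes in the stretch between the genes and the Ucp3 start region. The C2cd3 body alone had 8735, 7626 and 8208 bp across WT hearts and 5933, 3487 and 3868 bp across edKO hearts, which do not overlap. Its last 20 kb had 5187, 4388 and 7116 bp across WT hearts and 2040, 1327 and 1461 bp across edKO hearts, while the rest of its body had 3548, 3238 and 1092 bp across WT hearts and 3893, 2160 and 2407 bp across edKO hearts. Dnajb13, a gene of motile cilia and sperm flagella, had no called base in its own body in any heart, and its window value (difference 0.08) comes from the Ucp2 body and the bases just before it. Coa4, an assembly factor of cytochrome oxidase, and Mrpl48, a mitochondrial ribosomal protein gene, had differences of -0.03 (SE 0.15) and 0.08 (SE 0.09).

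Among other uncoupling proteins and related carriers, 0 of 11 tested were called in either direction, and the median difference was 0.08, where the median over all loci was 0.03. Ucp1 had 0 bp in every heart and was not tested. By centred lengths the genotypes were separated, with edKO lower, at 3 of 11, where 5.76% of all loci were. These 3 had the lowest differences, and in bp the hearts overlapped at Slc25a12, which is among them. Slc25a20, the carnitine-acylcarnitine carrier, also in the fatty acid list below, had 2698, 2842 and 2809 bp across WT hearts and 1412, 1734 and 2083 bp across edKO hearts (difference -0.55, SE 0.18). Slc25a4, the heart form of the ADP/ATP carrier, was at -0.18 (SE 0.09), Slc25a12, an aspartate-glutamate carrier, at -0.14 (SE 0.10), and Slc25a5, another ADP/ATP carrier, was highest at 0.16 (SE 0.11).

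PPAR-regulated fatty acid genes of muscle had lower estimates in edKO at 23 of 24, with a median of -0.42, where 41.6% of all loci had an estimate below 0 and the median was 0.03. Of these, 5 were called lower (Acot1, Acot2, Hadha, Acsl1 and Decr1) and 0 higher, against 0.105% of all loci. By centred lengths, 13 had all edKO hearts below all WT hearts (5.76% of all loci) and 1, Ehhadh, the reverse (7.11%). This list was chosen with earlier results of these data known, so its counts are descriptions without a test. The calls depend on single hearts: of the 24 genes, 0 were called without WT 3, 1 (Acot1) without WT 4 and 2 (Acot1 and Acot2) without WT 1, edKO 1, edKO 3 or edKO 6. They also depend on processing. At equal list length, or with regions counted only for the closest gene, 2 were called (Acot1 and Acot2). The gene body alone gave 2 of 22 tested (Decr1 and Hadha), and 25 kb on each side gave 3 (Acot1, Acot2 and Acsl1). Without centring 4 were called, Hadha not among them. Stricter lists gave 5, with Cpt2 in place of Decr1. The windows of Acot1 and Acot2, and of Hadha and Hadhb, overlap, so their values are not independent. Acot1 and Acot2, acyl-CoA thioesterases, fell with differences of -2.26 (SE 0.15) and -1.61 (SE 0.13). Hadha, whose product pairs with that of Hadhb in mitochondrial beta-oxidation, was the next lowest and fell by 1.34 on the log2 scale (SE 0.14), with 8354, 8745 and 10333 bp across WT hearts and 3811, 2528 and 3583 bp across edKO hearts. Ehhadh, a peroxisomal beta-oxidation enzyme, was highest at 0.14 (SE 0.10). In bp its hearts overlapped, with 2233, 2374 and 2070 across WT hearts and 2479, 2090 and 2416 across edKO hearts.

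Antioxidant defence genes were listed because Ucp2 and Ucp3 are often discussed with reactive oxygen species. They showed 0 of 16 called, 0 with the genotypes separated by centred lengths and a median of 0.00. In bp Nqo1 did not overlap, with 5887, 4593 and 4665 across WT hearts and 4084, 3554 and 4097 across edKO hearts. The lowest were Nqo1, a quinone reductase (-0.26, SE 0.13), catalase (Cat, -0.15, SE 0.13) and the heme oxygenase gene Hmox1 (-0.08, SE 0.13), and the highest was the mitochondrial thioredoxin reductase gene Txnrd2 (0.17, SE 0.15).

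**Figure D5:**
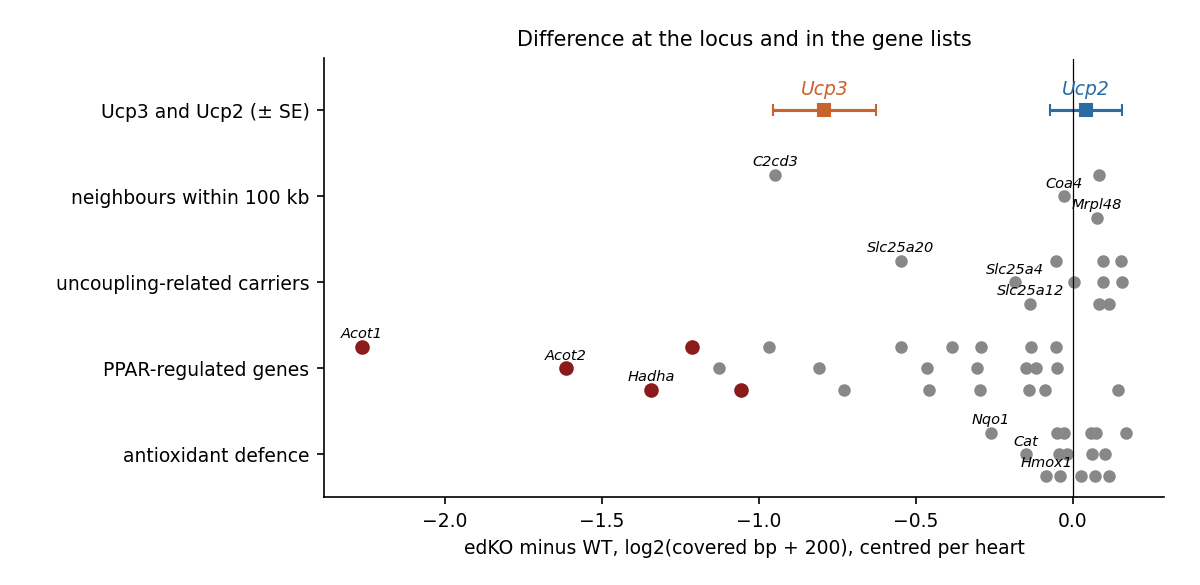
Difference edKO minus WT in log2(covered bp + 200), centred per heart, for Ucp3 and Ucp2 (bars ± SE) and for each tested gene of 4 lists, 1 point a gene, with the genes called by limma in dark red and the 3 lowest of each list named. Ucp3 (-0.79) lies within the range of the PPAR-regulated genes and Ucp2 (0.04) at the centre of the carrier and antioxidant lists.

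The 5 loci whose pattern over the 6 hearts was most like that of Ucp3, by the root mean square distance between deviations of centred log2 length from each locus mean, were Hsdl2 (0.0755), Eci2 (0.0823), Hadhb (0.106), Rbfox1 (0.107) and Zranb3 (0.116). Hsdl2 encodes a hydroxysteroid dehydrogenase-like protein of peroxisomes, Eci2 an enoyl-CoA isomerase for unsaturated fatty acids, and Hadhb the beta subunit of the mitochondrial trifunctional protein. Rbfox1 is a splicing regulator and Zranb3 a DNA translocase of replication forks. Hsdl2 had 7873, 8692 and 9556 bp across WT hearts and 5010, 3901 and 4365 bp across edKO hearts. By centred lengths, on which the likeness was taken, edKO 3 was the highest edKO heart at both Hsdl2 and Ucp3. The order is over 14313 compared loci and 6 hearts. Because Ucp3 was chosen from the same hearts, loci lower in edKO were bound to come first. The pattern matched is that of the 10 kb window, which includes the Ucp2 start region and the region inside C2cd3.

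Markers of cells that express uncoupling genes were examined at the same hearts. Lengths are over gene bodies with 10 kb on each side unless stated, so they can include regions outside the marker genes. The 10 cardiomyocyte markers had called regions in every heart, and their summed length was 181293 to 192989 bp across WT hearts and 143856 to 196626 bp across edKO hearts, which overlap. Of 9 brown adipocyte markers, the defining gene Ucp1, Otop1 and Zic1 were at 0 bp in every heart, and 5 were covered in every heart. The summed length was 62484 to 67583 bp across WT hearts and 45388 to 68232 bp across edKO hearts. Prdm16 held most of it, with 45471 to 51276 bp across WT hearts and 33301 to 53013 bp across edKO hearts. In gene bodies alone 5 of these 9 were at 0 bp in every heart, Adipoq among them. The body sums were 52520 to 57292 bp across WT hearts and 38106 to 59086 bp across edKO hearts. Cidea, a lipid droplet protein of brown fat and 1 of these 9, was not called but had 4776, 5135 and 5048 bp across WT hearts and 3130, 2838 and 3934 bp across edKO hearts, which do not overlap (difference -0.49, SE 0.13). In its body alone Cidea had 576, 599 and 524 bp across WT hearts and 397, 435 and 518 bp across edKO hearts. Most of its length was thus in the flanks. The other tested brown adipocyte markers had differences of -0.07 (Prdm16), 0.22 (Adipoq), 0.009 (Plin1) and 0.007 (Ebf2). The part of Cidea in the values at Ucp3 was not tested. Of 9 skeletal muscle markers, Myod1, Pax7, Acta1 and Myh4 were at 0 bp in every heart. The sum was 17382 to 18924 bp across WT hearts and 13084 to 18598 bp across edKO hearts. In gene bodies alone 6 of these 9 were at 0 bp in every heart. The body sums were 6685 to 7952 bp across WT hearts and 3815 to 7851 bp across edKO hearts. Of 8 leukocyte markers, Ptprc, Adgre1, Itgam and Lyz2 were at 0 bp in every heart, with sums of 13666 to 16775 bp in WT and 11944 to 16701 bp in edKO. In gene bodies alone 5 of these 8 were at 0 bp in every heart. The body sums were 1955 to 3811 bp across WT hearts and 2261 to 3381 bp across edKO hearts. The 6 endothelial markers (46821 to 58771 bp in WT, 36195 to 60150 bp in edKO) and the 6 fibroblast markers (23973 to 45289 and 31975 to 37237 bp) were covered in every heart. With 10 kb on each side, the lowest sum of every marker list but that of fibroblasts was in edKO 3. That heart had the least covered length, 47.9 Mb against 59.1 to 68.3 Mb in the others.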

How the data were processed

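H3K27ac ChIP-seq lists of 6 single hearts (3 WT, 3 edKO) were used, and the 6 inputs were not used. The authors deposited 1 narrowPeak list per heart, called on each heart and not pooled, with positions in mm10. The submitters' processing notes name cutadapt, BWA, SAMtools and MACS2, and the builds mm10 and GRCm38. No source used here gives versions, settings or whether inputs served as controls. The deposited fold enrichment is a ratio to local background, and the deposited −log10 p-values and −log10 q-values belong to each peak. The deposited integer score was not used. Fold ranks peaks within a list only. The smallest −log10 q was between 1.30 and 1.33 in the 6 lists.

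Entries with the same coordinates were joined into distinct regions on chromosomes 1 to 19, X and Y, and regions of the 6 lists were merged at 1 bp overlap. Genes and promoters came from RefSeq tables of GRCm38.p6 (21887 protein-coding genes, 17492 with a promoter sequence; both uncoupling genes matched). Covered length per gene locus was fitted as log2(bp + 200) by limma 3.58.1 (R 4.3.3) with a trended, robust prior, centred per heart on loci covered in all hearts, with a mean of at least 500 bp, no term but genotype, and p-values adjusted by Benjamini-Hochberg. On simulated data the fit recovered part of the known changes and not all, so a locus not called is not shown to be unchanged. With 3 against 3 hearts no single exact test can go below 0.1. Python 3.11.15, numpy 2.4.6, pandas 2.3.3 and matplotlib 3.10.9 were used.

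The uncoupling genes and all lists were chosen with earlier results of these data known. The text names both genes, all 9 regions, the genes within 100 kb, the 3 lowest and the highest member of each list, and the 5 loci most like Ucp3. Called list members and the promoters in the closing section were named after their values were seen. The result for 1 gene of the fatty acid list is not reported here, and the counts of that list leave it out.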

Additional observations from a re-analysis of the deposited data

How the results depend on the processing

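The Ucp3 difference was below 0 in all alternatives tried. It passed the limma threshold with the gene body alone (-2.0), with regions given only to the closest gene (-2.46) and with 5 kb on each side (-2.59, chosen after seeing the data). These windows leave out the Ucp2 start region. Without single hearts it ran from -0.91 to -0.62. The Ucp2 difference turned to -0.044 with no centring and to -0.70 with 25 kb on each side, a window that takes in the Ucp3 start, and ran from -0.044 (without edKO 3) to 0.11 without single hearts. Loci called lower numbered 4 with nearest genes, 9 with stricter lists, 6 at equal list length and 0 to 9 without single hearts, and loci called higher 0 to 1 without single hearts. With a replicate block on the 2 shared numbers, loci called lower were 90 and the Ucp3 difference was -0.56. In that fit WT 4 and edKO 6 have numbers of their own and do not inform the difference. It rests on hearts 1 and 3 of each genotype, with few residual degrees of freedom. The deviations of hearts from their genotype mean at each locus were correlated between genotypes. They correlated at 0.179 and 0.0316 for same-numbered hearts and at up to 0.143 for different numbers. A number is thus not shown to pair hearts. Regions called in all WT and no edKO hearts numbered 0 to 2 without single hearts. The Ucp3 promoter was covered in 3 WT and 0 edKO hearts also with stricter lists and at equal list length. With stricter lists 3 regions were called in all 6 hearts, the Ucp3 start not among them. Depth per heart is unknown, so a region lost to depth cannot be told from one lost to less mark.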

Other observations

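The Ucp3 promoter window is 1 of 19 touched in all WT and no edKO hearts. The others are of mixed kinds, and the genes are named here after their values were seen. Fbp2, the muscle fructose bisphosphatase, had 300, 300 and 263 bp covered in WT 1, 3 and 4, Klhdc7a had 259, 300 and 271 bp, and Plin5, a lipid droplet protein of oxidative tissue, had 243, 288 and 300 bp. Plcb2, a phospholipase C, had 277, 137 and 300 bp, Dennd1c had 191, 247 and 300 bp, and Ccdc116 had 273, 255 and 151 bp. Art1, an ADP-ribosyltransferase, had 148, 300 and 213 bp, 4930522L14Rik 179, 153 and 172 bp, and the thioesterase gene Acot4 148, 203 and 120 bp. H6pd (89, 300 and 148 bp), Ifit1 (3, 300 and 142 bp), F10 (99, 53 and 269 bp) and Icam4 (115, 85 and 84 bp) were covered less evenly or in part. Dync2h1, Fkbp11, Lage3, Slc35f1 and Zrsr1 had between 11 bp (Zrsr1, WT 3) and 144 bp (Dync2h1, WT 3).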
